A study of Mus musculus with 6 samples.

Results

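The 10 heat shock genes described here encode chaperones and the factors that switch them on, in megakaryocyte-erythroid progenitors (MEP) of mice with and without T-bet. They are Hspa1a, Hspa1b, Hsph1, Dnajb1, Hspb1, Hsp90aa1, Hspa8, Hspe1, Hsf1 and Hsf2. They were chosen by a measured value: Hspa1a and Hspa1b were picked for their difference between the genotypes on these same arrays, and inducible and constitutive heat shock genes were added to them. That difference is therefore a description here, with no test. A gene was read from the probe set that names it alone, and where several did, from the one of highest mean over all arrays. This found 9 of the 10 genes among 22180 genes on the array. No probe set in the annotation used here named Hsf1 alone, so Hsf1 was not analysed here.

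MEP are bone marrow cells that give rise to red cells and to platelet-forming megakaryocytes. Bulk RNA of sorted MEP was measured on 6 Affymetrix arrays, 3 of T-bet knockout and 3 of wild-type C57BL/6 animals, and the labels describe each array as a mouse of its own. The sources used here give no age, sex or knockout allele, and the labels name no treatment of the mice. The cells were stained with antibodies and sorted from fresh bone marrow by flow cytometry. Values are log2 signals, on which a difference of 1 is 2-fold, and each ± gives the SD of a group's 3 arrays. In a sorted bulk sample, fewer cells with a transcript and less of it in each cell cannot be told apart.

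Heat shock genes answer protein damage. When unfolded proteins accumulate, the transcription factor HSF1 is freed from chaperones, forms a trimer and binds heat shock elements, which are inverted repeats of a short unit, in front of its target genes. Hspa1a and Hspa1b encode the stress-inducible HSP70 and are known as some of the most strongly induced targets, whereas Hspa8 encodes HSC70, its constitutive relative. HSP70 works with a J-domain protein such as the product of Dnajb1 and with an exchange factor such as HSP110, the product of Hsph1. In erythroid cells HSP70 is known for shielding GATA1 from caspase cleavage; HSC70 is known for stripping clathrin from vesicles.

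Promoter sequences are shown for the pair that varied most between arrays and for 3 members with a like element that varied less. RefSeq (GRCm38.p6) held promoters of 7 of the 10 genes: Hspa1a, Hspa1b, Hsph1, Dnajb1, Hspb1, Hspe1 and Hsf2. Each line gives the 250 bases before the annotated transcription start, 5′ to 3′ on the strand of the gene. Capitals mark a match to 2 inverted units of the heat shock element, spelled GAANNTTC or TTCNNGAA. Each of these reads the same on both strands, and matches of the 2 spellings can overlap. The windows lie at chr17:34972157-34972406 (Hspa1a, minus strand), chr17:34959239-34959488 (Hspa1b, minus), chr5:149636337-149636586 (Hsph1, minus), chr5:135887669-135887918 (Hspb1, plus) and chr1:55087898-55088147 (Hspe1, plus).

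Hspa1a: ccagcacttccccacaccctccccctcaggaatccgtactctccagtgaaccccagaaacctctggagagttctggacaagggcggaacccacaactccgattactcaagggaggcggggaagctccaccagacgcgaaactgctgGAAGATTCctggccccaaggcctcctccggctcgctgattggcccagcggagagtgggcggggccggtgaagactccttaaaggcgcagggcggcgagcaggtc
Hspa1b: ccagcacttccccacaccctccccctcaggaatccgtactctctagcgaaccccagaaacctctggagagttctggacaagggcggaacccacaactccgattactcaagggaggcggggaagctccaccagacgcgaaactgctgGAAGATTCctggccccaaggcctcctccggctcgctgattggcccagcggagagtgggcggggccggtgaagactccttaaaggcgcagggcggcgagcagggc
Hsph1: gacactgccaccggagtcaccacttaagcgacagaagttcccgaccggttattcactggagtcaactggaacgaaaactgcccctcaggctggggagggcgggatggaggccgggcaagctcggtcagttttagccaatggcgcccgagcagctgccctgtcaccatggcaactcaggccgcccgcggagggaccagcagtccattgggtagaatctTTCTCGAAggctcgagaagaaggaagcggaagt
Hspb1: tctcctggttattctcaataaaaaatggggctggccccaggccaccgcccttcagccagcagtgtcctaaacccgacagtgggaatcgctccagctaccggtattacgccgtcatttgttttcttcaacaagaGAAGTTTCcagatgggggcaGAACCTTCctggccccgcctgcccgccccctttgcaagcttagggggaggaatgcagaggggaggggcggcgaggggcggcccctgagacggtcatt
Hspe1: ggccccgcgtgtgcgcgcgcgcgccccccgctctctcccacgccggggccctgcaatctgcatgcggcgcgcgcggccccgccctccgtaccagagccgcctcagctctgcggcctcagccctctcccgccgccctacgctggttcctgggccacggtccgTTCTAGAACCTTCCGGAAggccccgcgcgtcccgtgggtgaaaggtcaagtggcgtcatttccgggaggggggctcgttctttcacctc

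The promoters of Hspa1a and Hspa1b were all but the same sequence. Over 300 bases, of which 250 lie before the start and the rest after it, 296 were identical (98.7%). The 4 differences, written as the base of Hspa1a, the position counted from the 5′ end of the window and the base of Hspa1b, were C44T, T47C, T249G and C276T. Both promoters held GAAGATTC at bases -104 to -97 from the start. The genes also lie side by side on chromosome 17, with Neu1 on one flank and Hspa1l on the other.

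Matches to the 2-unit element were found in 5 of the 7 members with a promoter, against 14.5% of the 27025 genes that have one in the table. The 5 include Hspa1a and Hspa1b, whose promoters are nearly the same sequence. Of 15 other HSF1-induced genes with a promoter, 3 had a match (20%). Hspe1, which encodes the mitochondrial chaperonin cofactor HSP10, had 3 overlapping matches between bases -89 and -72, and these join into longer runs of alternating units. It was the 1 member with a run of 3 units, which 0.514% of all genes held. Hspb1, the gene of the small heat shock protein HSP27, had matches at bases -117 and -97, and Hsph1 had a match at base -33 from the first of its 2 annotated starts. Neither start of Dnajb1 nor the start of Hsf2 had a match in this window, which says only that these letters are not there.

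**Figure D1:**
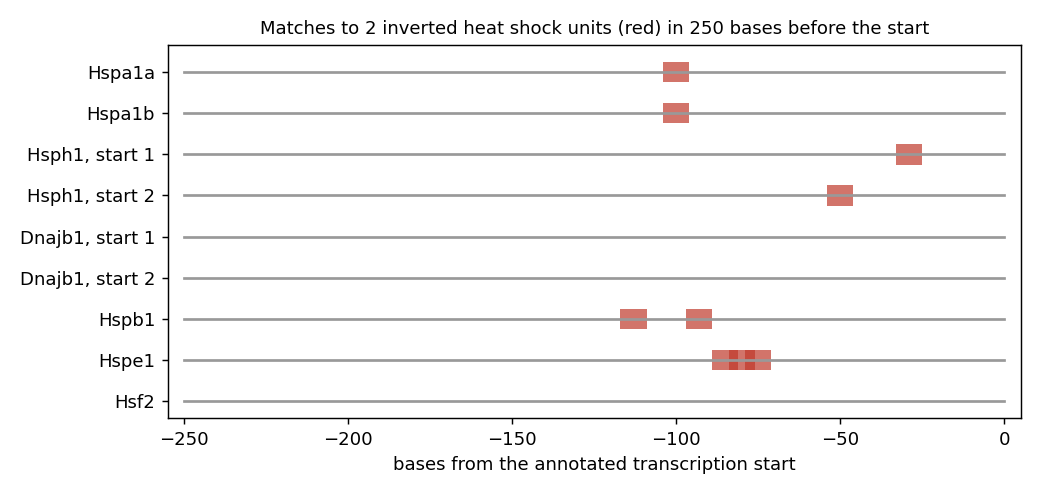
Positions of matches to 2 inverted heat shock units (red) in the 250 bases before each annotated start, on an axis of bases from the start, for the 7 members with a RefSeq promoter; Hsph1 and Dnajb1 have 2 starts each. Hspa1a and Hspa1b carry 1 match at the same place, and Hspe1 has 3 that overlap.

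The targeted gene did not tell the genotypes apart. Tbx21, which encodes T-bet, read 6.41, 6.60 and 6.46 in the knockout and 6.54, 6.62 and 6.60 in the wild-type arrays, a difference of -0.09 (SE 0.09) with overlapping groups. The sources used here do not say which part of the gene was deleted, so this reading does not check the labels. The values also lay near the array medians of 6.44 to 6.53, and at such a level a loss may not show. As for cell type, the 13 measured MEP markers, among them Gata1, Klf1 and Epor, had a mean level between 9.87 and 9.99 on all 6 arrays. Their median difference was 0.00, with 7 of the 13 above 0, among them Klf1 at 0.12 and Epor at 0.11. Within this list 3 megakaryocyte genes, Itga2b, Pf4 and Vwf, were lower in the knockout array of each same-numbered pair. Their differences were -0.34, -0.48 and -0.19. The list did not set these 3 apart beforehand. Elsewhere in it, Gata1, Gfi1b, Zfpm1, Nfe2 and Gata2 differed by 0.01, 0.06, 0.09, -0.02 and -0.02. The groups overlapped for Pf4 and Vwf but not for Itga2b, and 8.7% of all genes had groups free of overlap. Sex-linked genes divided the arrays differently from the labels. Knockout replicates 1 and 2 and wild-type replicate 1 carried both Xist, from the inactive X chromosome (11.79 to 11.83), and the Y-linked gene Eif2s3y (8.39 to 8.86). The arrays numbered 3 of both genotypes had the Y-linked genes without Xist, and wild-type replicate 2 had Xist without them, although the labels give 1 mouse for each array.

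Of the 9 measured members, the inducible HSP70 genes differed most between the genotypes and also varied most within each. Here and for each other gene in order of replicate number, Hspa1a read 9.15, 10.27 and 11.59 in the knockout against 9.60, 8.13 and 8.28 in the wild type. Knockout replicates 2 and 3 lay above all wild-type arrays, but knockout replicate 1 lay below wild-type replicate 1, so the groups overlapped. The group levels were 10.33 ± 1.22 and 8.67 ± 0.81, a difference of 1.66 (SE 0.66), or 3.17-fold.

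Hspa1b followed the same order of arrays. Knockout values were 9.40, 10.37 and 11.54, and wild-type values 10.01, 8.66 and 8.68. Again the highest array was knockout replicate 3, and wild-type replicates 2 and 3 were the lowest. The group levels were 10.44 ± 1.08 and 9.12 ± 0.77, a difference of 1.32 (SE 0.60), or 2.50-fold.

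A further probe set, which the annotation gives to both genes, read 6.09, 6.56 and 7.84 in the knockout and 6.18, 5.29 and 5.29 in the wild-type arrays. Its difference was 1.25 (SE 0.47). The values of the 3 probe sets correlated over the 6 arrays at r = 0.985 to 0.997. The transcripts are near-identical copies, so their signals are not independent measurements and how much each gene contributes is uncertain.

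**Figure D2:**
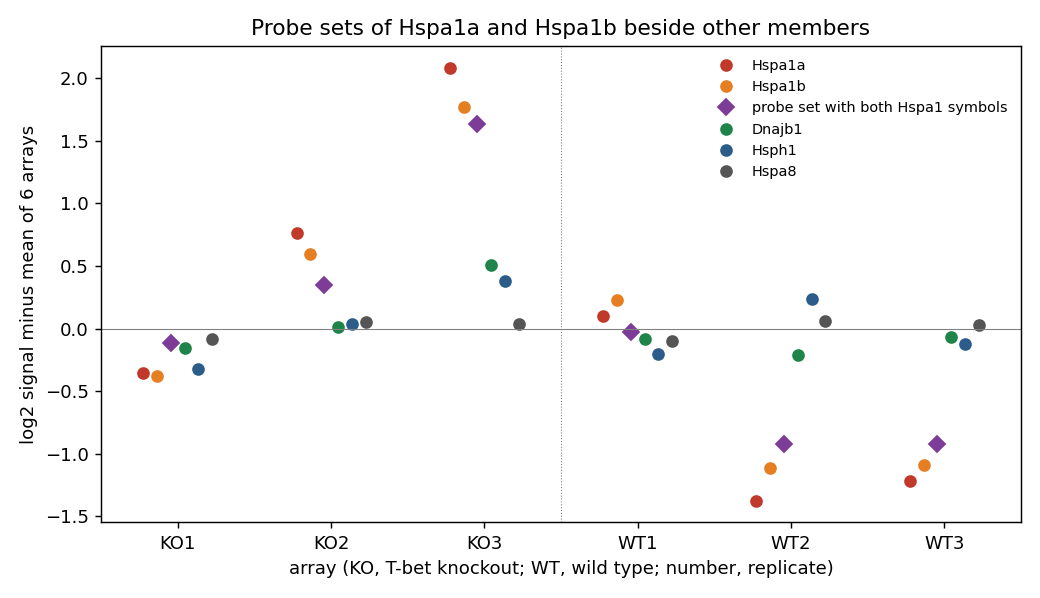
Log2 signal of each probe set minus its own mean over 6 arrays (vertical axis) for each array (horizontal axis; KO, T-bet knockout; WT, wild type; the number is the replicate). The 3 probe sets of Hspa1a and Hspa1b are highest in KO3 and lowest in WT2 and WT3. The Hspa8 probe set of highest mean stays within 0.16 from lowest to highest.

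Among all 22180 genes, Hspa1a had rank 1 and Hspa1b rank 3 by the size of the difference. Between them lay Vmn1r25, a vomeronasal receptor gene of dim signal (1.33), and just behind them Olfr237, an odorant receptor gene (1.24). These ranks restate what chose the genes. A difference of at least 2-fold toward the knockout was found for 2 of the 9 members and for 9 of all genes (0.0406%). The spread within the genotypes comes from the same arrays and is a description too. The pooled within-group SD of Hspa1a was 1.04, rank 6 of all genes, behind Xist, Eif2s3y, Uty, Kdm5d and Vmn1r14, and that of Hspa1b was 0.94, rank 11.

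**Figure D3:**
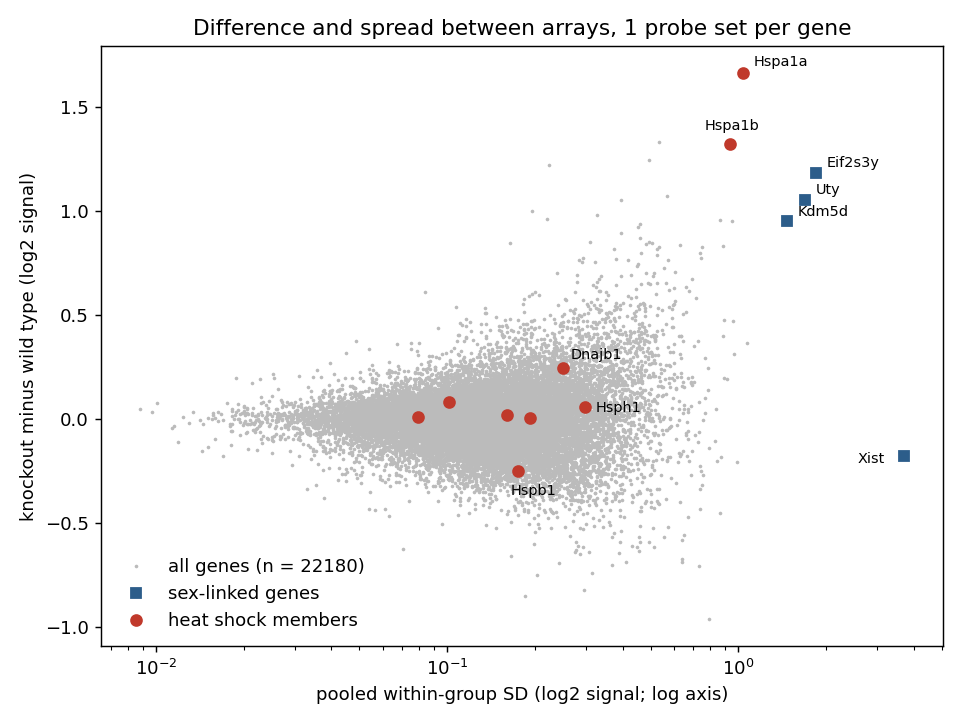
Difference between the genotypes (vertical axis, knockout minus wild type, log2 signal) against the pooled within-group SD (horizontal axis, log2 signal on a log axis) for 22180 genes (grey), the 9 measured heat shock members (red) and 4 sex-linked genes (blue). Hspa1a and Hspa1b combine a difference of 1.66 and 1.32 with an SD of 1.04 and 0.94. The other 7 members have differences between -0.25 (Hspb1) and 0.24 (Dnajb1). The largest SD among these 7 is 0.30 (Hsph1), at percentile 92.1 of all genes.

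How large the HSP70 difference was depended on which arrays were compared. Between arrays of the same replicate number Hspa1a differed by -0.45, 2.14 and 3.30 for numbers 1, 2 and 3, and Hspa1b by -0.61, 1.71 and 2.86. Number 1 thus ran against the other two. Among arrays with both Xist and Y-linked signal, the mean of knockout replicates 1 and 2 stood 0.11 above wild-type replicate 1 for Hspa1a and -0.12 from it for Hspa1b. Without these 3 arrays, knockout replicate 3 stood 3.38 above the mean of wild-type replicates 2 and 3 for Hspa1a and 2.87 for Hspa1b. Without knockout replicate 3 the differences were 1.04 and 0.77. What set knockout replicate 3 apart was not tested.

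Dnajb1 and Hsph1, whose products work with HSP70, were also highest in knockout replicate 3. Dnajb1, the J-domain partner that hands clients to HSP70, read 9.30, 9.47 and 9.97 in the knockout and 9.38, 9.25 and 9.39 in the wild-type arrays. Its difference was 0.24 (SE 0.18), 0.05 without knockout replicate 3 and 0.65 without the 3 arrays of both Xist and Y-linked signal. As for Hspa1a, knockout replicate 2 was the second highest array and wild-type replicate 2 the lowest. The wild-type arrays spanned little (9.34 ± 0.08).

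Hsph1, the gene of the exchange factor HSP110, read 10.13, 10.49 and 10.84 in the knockout arrays. In the wild-type arrays it read 10.26, 10.69 and 10.34. Knockout replicate 3 was the highest array and knockout replicate 1 the lowest, with the wild-type values between them. The group levels were 10.49 ± 0.35 and 10.43 ± 0.23, a difference of 0.06 (SE 0.20), which turned to -0.12 without knockout replicate 3 and was also below 0 without wild-type replicate 1. It was 0.32 without the 3 arrays of both sex-linked signals.

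The constitutive HSC70 gene was flat by its probe set of highest mean only. There Hspa8 read 13.17, 13.30 and 13.29 in the knockout and 13.15, 13.31 and 13.28 in the wild-type arrays, which differed by 0.01 (SE 0.09). The mean of this probe set lay above that of 99.8% of probe sets. The other 3 probe sets that name Hspa8 alone were not flat. The probe set with ID 17548379 read 10.52, 9.88 and 10.07 in the knockout and 10.36, 10.16 and 8.85 in the wild-type arrays, a difference of 0.37 (SE 0.40). Wild-type replicate 3 was low there by more than 1 unit against each other array. A second (17548744) repeated these values at r = 1.00 over the 6 arrays, and the last (17434475) was lowest in wild-type replicate 3 as well, at 8.90 against 9.15 to 9.42. Across the arrays 17548379 ran against the main probe set of the gene at r = -0.50. A further probe set, which the annotation gives to Snord14e and Hspa8, differed by 0.21 (SE 0.19). It read 11.34, 11.28 and 11.88 in the knockout and 11.50, 11.14 and 11.24 in the wild-type arrays. The sources used here do not say which transcripts each of these probe sets reads.

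Hsp90aa1, the inducible gene of the HSP90 chaperone that folds kinases and steroid receptors, read 9.98, 9.94 and 10.05 in the knockout and 9.95, 10.01 and 9.76 in the wild-type arrays. Its difference was 0.08 (SE 0.10), and 0.16 without the 3 arrays of both sex-linked signals, with wild-type replicate 3 the 1 low array. Hspe1 had the same low array, with 9.91, 9.88 and 9.97 in the knockout and 10.02, 10.12 and 9.61 in the wild-type arrays and a difference of 0.00 (SE 0.15). Over the 6 arrays Hsp90aa1 and Hspe1 correlated at r = 0.875, and at r = 0.972 as deviations from the group means. On the values themselves, leaving 1 array out gave 0.403 to 0.925. With Hspa1a the values correlated at r = 0.489 for Hsp90aa1 and 0.173 for Hspe1. Leaving 1 array out gave 0.193 to 0.810 and -0.517 to 0.661.

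Hspb1 had 2 probe sets that disagreed. The one of highest mean read 5.77, 5.97 and 5.94 in the knockout and 6.23, 5.90 and 6.31 in the wild-type arrays, a difference of -0.25 (SE 0.14). The other read 5.66, 5.59 and 5.91 against 5.79, 5.67 and 5.64, a difference of 0.02 (SE 0.11). Both had means above 5.70, where the lowest 30% of probe sets end, the second only just. Hsf2, a factor that binds heat shock elements together with HSF1, read 7.09, 7.46 and 7.42 in the knockout. Its wild-type values were 7.19, 7.37 and 7.35, a difference of 0.02 (SE 0.13), and the groups overlapped.

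**Figure D4:**
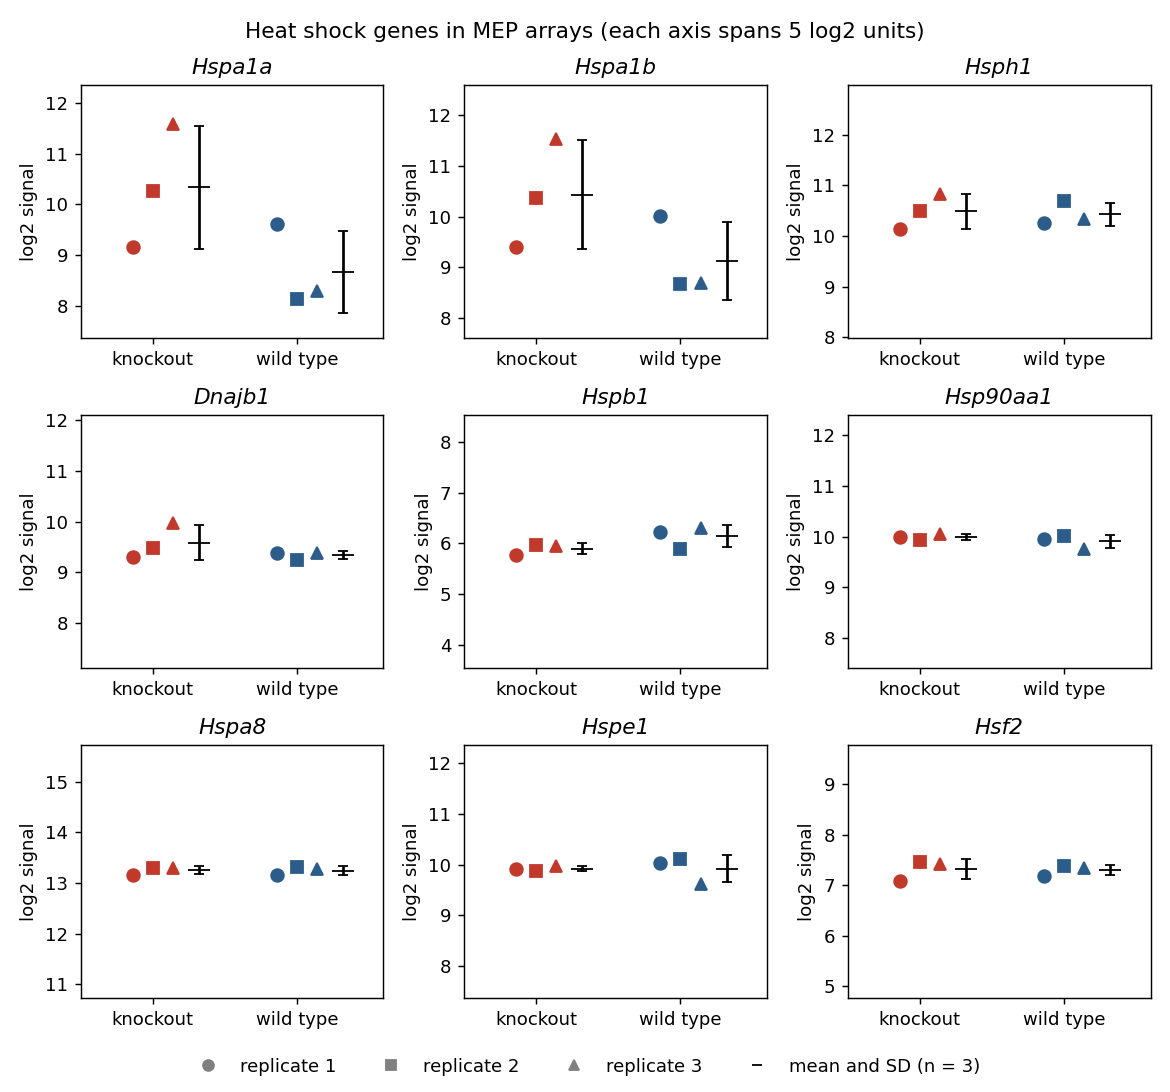
Log2 signal (vertical axis, spanning 5 units in each panel) of the 9 measured members in knockout and wild-type arrays (horizontal axis; 3 arrays each, marker shape gives the replicate number); the black bar is the mean with its SD. Hspa1a and Hspa1b range over 3.46 and 2.88 units, and the other 7 over 0.72 or less.

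Counted together, 8 of the 9 members had a difference above 0, against 10701 of all 22180 genes. The 8 include Hspa1a and Hspa1b, chosen for this difference, and Hspa8, Hspe1 and Hsf2 at 0.02 or less. The 1 below 0 was Hspb1, by its probe set of highest mean but not by its other. The median was 0.06 against -0.00 for all genes. The count above 0 fell to 6 after a further quantile normalization, which put Hspe1 and Hsf2 below 0, and to 4 without knockout replicate 3. It was 5 without wild-type replicate 1, 6 without knockout replicate 2 and 7 without wild-type replicate 3. Without the 3 arrays of both sex-linked signals, Hspb1, Hspa8, Hspe1 and Hsf2 differed by -0.16, -0.00, 0.11 and 0.06. No member had groups free of overlap (0 of 9), whereas 8.7% of all genes did. No probe set of the array passed an adjusted p of 0.05 in limma (0 of 41345, or 0%), so 0 of 9 members were called.

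Correlations between members describe which of them went up and down together over the 6 arrays, which share their scaling. Hspa1a and Dnajb1 correlated at Pearson r = 0.882 and Spearman rho = 0.829, and at r = 0.855 once the group means were taken off. Of the 7 members other than Hspa1b this was the highest correlation with Hspa1a, and the median was r = 0.289. Hsph1 and Hspa1a correlated at r = 0.422, but at -0.27 with 1 array left out and at 0.833 with another. Hspa8 kept company with Hsf2 (r = 0.930) and Hsph1 (r = 0.768), though its own range was only 0.16. With its 4 probe sets averaged, these values were -0.42 and 0.02, so they rest on the probe set of highest mean. With 6 arrays, and 36 pairs of members, such values are descriptions only.

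Other genes of the chaperone network, taken from lists of families and partners, showed small differences. The 92 measured genes of 7 chaperone lists had a median of -0.00, with 44 above 0 and 48 below, and none reached a 2-fold difference (range -0.26 to 0.36). In limma 0 of the 92 passed the adjusted threshold and 0 had an unadjusted p under 0.05, where 3.13% of all genes did. This held for each of the 7 lists.

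Within the HSP70 and HSP110 family (11 genes, median -0.04), Hspa12b, Hspa5 and Hspa4l differed by -0.15, 0.12 and -0.08. Hspa5 encodes BiP, the HSP70 of the endoplasmic reticulum. HSP90 relatives and co-chaperones (14 genes, median 0.03) had the widest range, with the p23 gene Ptges3 at 0.36 (SE 0.23), Chordc1 at -0.20 and Hsp90b1, the HSP90 of the endoplasmic reticulum, at -0.10. Among 33 J-domain genes (median -0.00), Dnajb2, Dnajc28 and Dnajc25 differed by 0.22, 0.16 and 0.15. The 11 HSP70 co-chaperones (median 0.03) included Bag2 at 0.11, the exchange factor Hspbp1 at -0.09, and Bag6 at 0.07.

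Chaperonin genes were the most even, with all 9 between -0.05 and 0.02. Cct4 and Cct8, subunits of the cytosolic ring that folds actin and tubulin, differed by -0.05 and -0.03, and Hspd1, the mitochondrial HSP60 gene whose product works with that of Hspe1, by -0.04. Of 8 small heat shock proteins (median -0.08), Hspb7 and Hspb9 differed by -0.26 and -0.23 and Hspb3 by 0.18. The 6 other heat shock factors and regulators (median -0.05) were led by Hsf5 at -0.21, with the dim Hsf3 at -0.16 and Hsf4 at 0.13.

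Further targets of HSF1 did not share the difference of Hspa1a and Hspa1b in size. The 15 measured genes of that list, some of which also stand in the other lists, had a median of -0.04, with 7 above 0 and 8 below (range -0.20 to 0.17). In limma 0 passed the adjusted threshold and 0 an unadjusted p of 0.05. Chordc1, Hspb8 and Hspa4l had the smallest p, with differences of -0.20, 0.17 and -0.08. The neighbours on chromosome 17 also differed little. The 19 measured genes around Hspa1a and Hspa1b had a median of -0.04 and a range of -0.10 to 0.07, with 0 past either threshold in limma, and Lsm2, Zbtb12 and Ddah2 differed by -0.10, -0.10 and -0.08. Hspa1l, the HSP70 gene next to Hspa1a, differed by -0.04.

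From array to array the means of these lists also varied less than the HSP70 pair and in another order. A mean over many genes varies less than single genes do, so the sizes are not like for like. Against each gene's mean over 6 arrays, Hspa1a stood at -0.35, 0.76 and 2.08 in the knockout and at 0.10, -1.37 and -1.22 in the wild type. The 92 chaperone genes averaged -0.08, 0.03 and 0.05 in the knockout and -0.06, 0.05 and 0.01 in the wild-type arrays. They were thus lowest in the arrays numbered 1 of both genotypes. Endoplasmic reticulum stress genes (22 measured) shared this, at -0.13, 0.03, 0.09, -0.09, 0.09 and 0.00, and had a median difference of -0.02, with 0 past either threshold in limma. Their 3 genes of smallest p were Ddit3, Syvn1 and Calr, at 0.32, 0.11 and -0.10.

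Immediate early and handling stress genes (31 measured, such as Fos, Jun and Egr1) had their own pattern. Their mean deviations were -0.02, -0.32 and 0.34 in the knockout against 0.13, -0.28 and 0.16 in the wild type. Like Hspa1a they were highest in knockout replicate 3. Of the 31 genes, 19 (61.3%) had their highest value there, against 23.8% of all genes outside the lowest 30%. They were lowest in knockout replicate 2, where Hspa1a was second highest. They were nearly as low in wild-type replicate 2, where Hspa1a was lowest. Their median difference was -0.01, with 0 past either threshold in limma, and Egr2, Junb and Ccn1 differed by -0.22, -0.16 and -0.17. Whether handling contributed to the HSP70 values was not tested.

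Markers of other blood cells were set beside the HSP70 values. Of 9 B cell markers 8 were measured, with a mean level of 6.67 to 7.30 in the knockout and 6.41 to 6.89 in the wild-type arrays, and no value was at 0. Their deviations were 0.19, -0.19 and 0.43 in the knockout and 0.02, -0.46 and 0.01 in the wild-type arrays. Their mean was highest in knockout replicate 3 and lowest in wild-type replicate 2, as for Hspa1a. The arrays between differed in order: knockout replicate 2 was second lowest for this mean and second highest for Hspa1a. The markers did not all move alike. Ighm, Cd79a, Ebf1, Igll1 and Pax5 differed by 0.64, 0.56, 0.54, 0.41 and 0.16. Cd79b, Vpreb1 and Ms4a1 differed by -0.01, 0.01 and -0.01 and were not highest in knockout replicate 3. Granulocyte and monocyte markers (12 of 12 measured) had mean levels of 5.76 to 6.06 and 5.81 to 5.90, also highest in knockout replicate 3. Macrophage and mast cell markers were lowest in that array, at -0.14 and -0.20, endothelial markers stood at -0.13 there and at -0.14 in wild-type replicate 2, and T and NK cell markers stayed between -0.06 and 0.10. The part of these cells in the HSP70 values was not tested.

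**Figure D5:**
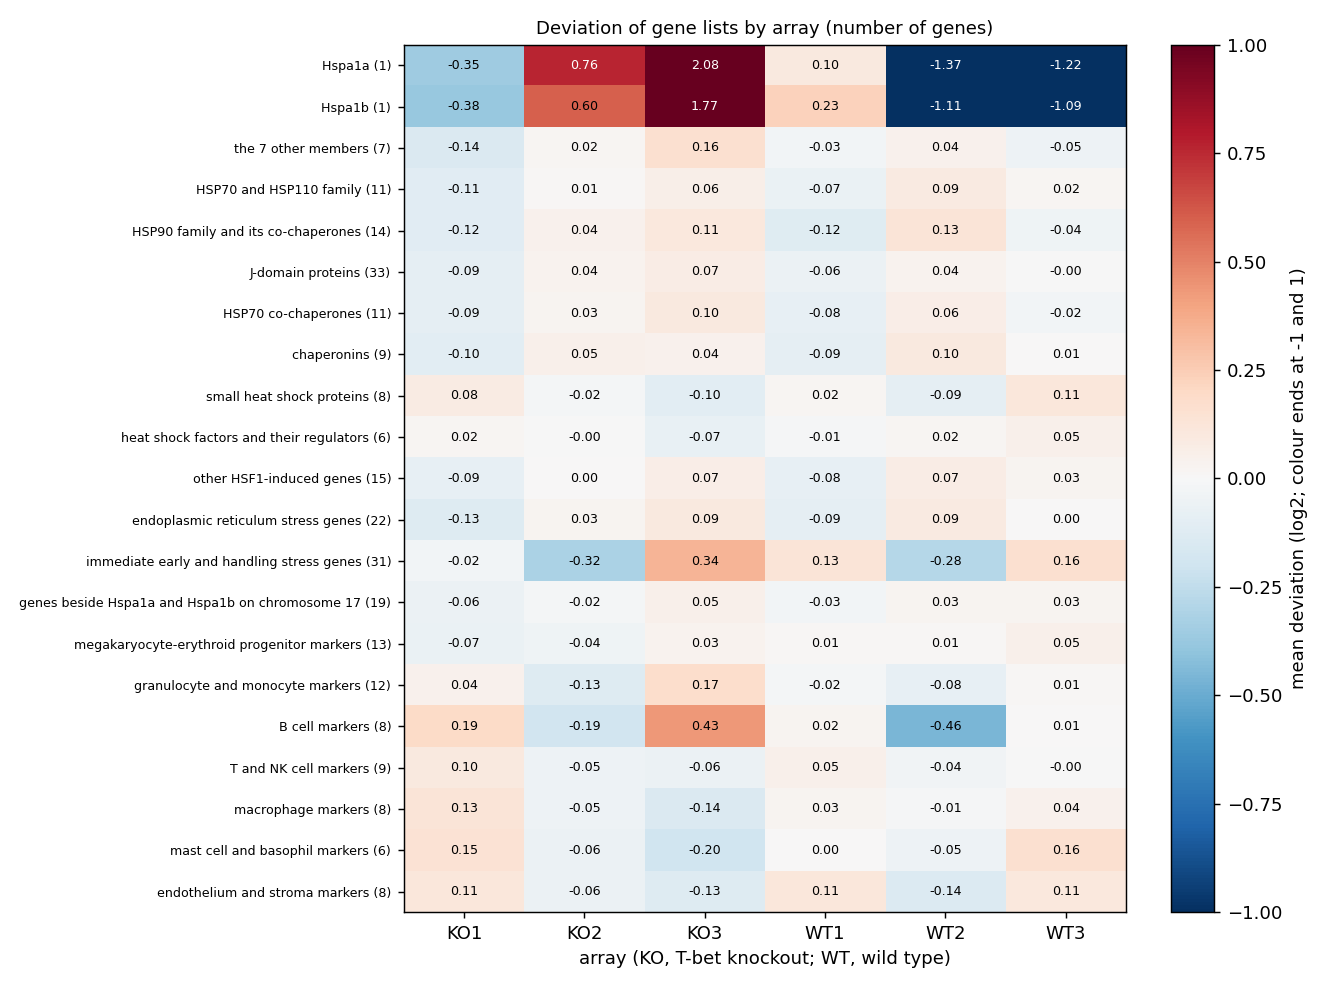
Mean deviation (log2 signal, colour and printed value) of each list from its genes' means over 6 arrays, for each array (columns; KO, T-bet knockout; WT, wild type), with the number of genes in brackets; the colour ends at -1 and 1. Hspa1a and Hspa1b reach 2.08 and 1.77 in KO3, and no list of other genes exceeds 0.46 in either direction.

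Genes outside the set were also ranked by how closely they followed Hspa1a over the 6 arrays. Among 2841 genes outside the lowest 30% that ranged over at least 0.5, the 10 with the highest Pearson r reached 0.897 to 0.975. They were Vmn2r55, Mir693, Cecr2, Mir5128, Brpf3, Ulbp1, Dkkl1, Gnrh1, Per1 and 1700026J14Rik. All ranged far less than Hspa1a. As the highest of 2841 correlations over only 6 arrays, these values are high by selection and are descriptions only. Mir5128 lay near the dim limit of 5.70, with group means of 6.05 in the knockout and 5.68 in the wild type. Vmn2r55, a vomeronasal receptor gene, read 6.70, 6.80 and 7.08 in the knockout and 6.71, 6.31 and 6.42 in the wild-type arrays. Per1, a core gene of the circadian clock, read 9.48, 9.85 and 10.22 against 9.67, 9.60 and 9.53 (r = 0.905). Cecr2 and Brpf3, which encode bromodomain proteins, read 8.27 and 7.72 in knockout replicate 3, their highest array.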

How the data were processed

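Biotin-labelled cRNA from total RNA of sorted MEP was hybridised to 6 Affymetrix arrays. The authors deposited log2 signals of 41345 probe sets. Affymetrix Expression Console 1.4.1.46 was used, per the submitters' processing notes; the sources used here do not give its background correction or normalization. A scanner's largest 16-bit intensity has a natural log of 11.1, and values reached 14.2, so the scale was read as log2. Array medians lay between 6.44 and 6.53. The number of arrays limits the precision, and p-values measure only the spread between these arrays.

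The array's annotation listed 25335 probe sets, of which 23521 named 1 gene; symbols were updated through RefSeq, which held 23328 of them and left 22180 genes. Differences and standard errors come from limma 3.58.1 in R 4.3.3 (lmFit and eBayes, genotype as the only term), and p-values were adjusted by Benjamini-Hochberg across the 41345 probe sets. The fit was tested on simulated data. Groups followed the sample titles.

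The members and lists were chosen with earlier results of these data known, so the members' difference carries no test. The text names all members, the 3 genes of smallest unadjusted p in each list, and the 10 genes of highest Pearson r with Hspa1a that lay outside the lowest 30% of means and ranged over at least 0.5. Deviations of same-numbered arrays correlated at r = 0.285, 0.116 and 0.115 over genes and at 0.212, 0.0569 and 0.140 over all probe sets, and the labels do not say what a shared number means. Other scalings, filters, blocks, weights and sets of arrays were tried as alternatives.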

Additional observations from a re-analysis of the deposited data

How the results depend on the processing

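Hspa1a and Hspa1b stayed higher in the knockout under every alternative of processing or of arrays left out. Comparisons within parts of the arrays did not all go this way. In the number 1 pair the differences were -0.45 and -0.61. Among the arrays with both sex-linked signals they were 0.11 and -0.12. Leaving out each array in turn gave 1.04 to 2.26 for Hspa1a and 0.77 to 1.84 for Hspa1b, lowest without knockout replicate 3 and highest without knockout replicate 1. Without the 3 arrays of both Xist and Y-linked signal, an alternative chosen after seeing the data, the values were 3.38 and 2.87. With the replicate block the differences remained 1.66 (SE 0.75) and 1.32 (SE 0.69), and the block gave 0 probe sets past the adjusted p of 0.05 in limma, as without it. That count was 1 with array weights, 1 with each array centred on its median and 1 at a threshold of 0.1. It ranged from 0 to 2 with 1 array left out, with 2 without knockout replicate 3. The cause was not tested. The median of the 9 members ranged from -0.01 to 0.13 with 1 array left out. Hspa8 differed by 0.20 with its probe sets averaged, and Dnajb1 by 0.65 without the 3 arrays. Counting runs of 3 heat shock units in place of 2 left 1 member with a match instead of 5.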
